A study of Mus musculus with 20 samples.

Results

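The 9 genes described here, *Fkbp5*, *Sgk1*, *Tsc22d3*, *Zbtb16*, *Ddit4*, *Errfi1*, *Cdkn1a*, *Arrdc2* and *Sult1a1*, are induced by glucocorticoids in many tissues. They were taken by gene name from the 17211 genes measured by RNA-Seq in mouse brains, and each was found once. The brains came from *Winnie* mice, whose missense mutation of *Muc2*, a mucin gene of the gut, gives rise to spontaneous colitis, and from C57BL/6 mice of the same breeding colony. All mice were 14 weeks old and were killed with pentobarbitone. There were 10 brains of each genotype, and the labels give 5 females and 5 males in each. The mutation is carried in every tissue, so a change in the brain cannot be told apart as an effect of the mutation there or of the inflamed gut. The genes were selected on their fold changes between these same brains, as earlier results gave them. These fold changes are therefore a description, and the number of them that changed does not stand as evidence on its own.

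Glucocorticoids, in the mouse mainly corticosterone, are steroid hormones of the adrenal cortex that rise with stress, with inflammation and once a day before the active phase. In the cell they bind the glucocorticoid receptor, encoded by *Nr3c1*, which is held ready by heat shock protein chaperones, moves to the nucleus and binds palindromic response elements in DNA. Its brain targets lie in neurons, glia and vessel cells alike. Many of them also respond to other signals, such as hypoxia, DNA damage, insulin and the circadian clock.

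Expression was read as CPM, in which the reads of a gene are divided by the reads of all 17211 listed genes in its brain and brought to a common total. These genes held 16540303 to 23923769 reads in a brain, so that 1 read was worth 0.0418 to 0.0605 CPM, and the lowest value of any of the 9 genes, that of *Sult1a1*, rested on 66 reads. In 9 of the 10 C57BL/6 brains and in 0 of the 10 *Winnie* brains, the sex read from *Xist*, the RNA of the silenced X chromosome, and from the Y-linked *Ddx3y* went against the labelled sex. Of the C57BL/6 brains 6 had *Xist* and 4 had *Ddx3y*, against 5 and 5 of the *Winnie* brains. Library numbers run through the C57BL/6 brains first and the *Winnie* brains after them, so that library order and genotype cannot be told apart. The labels' replicate numbers are used here to name single brains.

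Promoter sequence is shown for the 4 genes of the set with the smallest false discovery rate (FDR) between the genotypes, since glucocorticoid response elements can lie near the start of a gene, though many lie far from it. RefSeq (GRCm38.p6) held 17 windows of 250 bases before to 50 bases after a start for 8 of the 9 genes, and for *Zbtb16* none was used. The hexamer TGTTCT is an arm of the palindromic glucocorticoid response element, in which a pair of these hexamers face each other 3 bases apart. The full palindrome was found in 3 of 32851 windows of all genes (0.00913%), and 1 of the 3 belonged to *Sgk1*. It began at position −189, counted from the start. TGTTCT alone, searched on both strands and including the palindromes, was present in 18.97% of all windows. It was found in 5 of the 17 windows, those of *Sgk1*, *Tsc22d3* and *Sult1a1*, which are 3 of the 8 genes with windows. Most of the 5 windows belonged to *Sgk1*, which had more windows than any other gene of the set. For each gene the window with most such hexamers is given as its 250 bases before the start, read 5′ to 3′ along the gene's strand, with the hexamers of either strand in capitals.
*Sgk1* (chr10:21993640-21993889, plus strand): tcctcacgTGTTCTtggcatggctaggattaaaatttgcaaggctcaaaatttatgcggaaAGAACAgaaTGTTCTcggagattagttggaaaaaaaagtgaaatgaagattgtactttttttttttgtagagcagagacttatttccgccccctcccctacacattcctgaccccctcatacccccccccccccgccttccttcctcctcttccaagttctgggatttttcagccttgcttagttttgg
*Tsc22d3* (chrX:140600523-140600772, minus strand): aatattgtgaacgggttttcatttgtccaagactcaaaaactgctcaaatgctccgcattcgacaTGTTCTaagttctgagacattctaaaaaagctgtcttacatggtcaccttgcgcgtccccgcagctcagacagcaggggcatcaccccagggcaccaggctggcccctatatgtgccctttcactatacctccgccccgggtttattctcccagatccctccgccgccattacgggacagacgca
*Sult1a1* (chr7:126676419-126676668, minus strand): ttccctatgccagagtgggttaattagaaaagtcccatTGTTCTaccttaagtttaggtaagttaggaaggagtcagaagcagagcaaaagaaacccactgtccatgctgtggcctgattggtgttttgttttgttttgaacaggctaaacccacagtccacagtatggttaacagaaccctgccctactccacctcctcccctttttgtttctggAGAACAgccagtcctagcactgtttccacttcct
*Arrdc2* (chr8:70839721-70839970, minus strand): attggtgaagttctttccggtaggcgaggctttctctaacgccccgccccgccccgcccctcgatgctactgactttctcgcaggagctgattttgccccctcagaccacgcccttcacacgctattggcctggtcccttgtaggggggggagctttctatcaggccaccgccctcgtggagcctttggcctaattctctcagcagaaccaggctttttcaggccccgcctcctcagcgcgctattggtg
The *Sgk1* window held 3 hexamers, and the pair at −189 and −180 made up the palindrome. *Tsc22d3* had its hexamer at −185, *Sult1a1* had hexamers at −212 and −34, and the *Arrdc2* window held none. The core of the hypoxia response element, ACGTG, was present in 4 of the 17 windows, of 4 genes, and in 19.62% of all windows. TGACG, a part of the cyclic AMP response element, was present in 3 of the 17 windows, of 3 genes, and in 20.81% of all windows. These matches are letters in short windows, and binding was not measured.

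At an FDR under 0.05 in limma, fitted over all genes on log2(CPM + 0.5), 5 of the 9 genes were higher in *Winnie* brains and 0 were lower. Of all 17211 genes 434 (2.52%) were called, 261 higher (1.52%) and 173 lower (1.01%). The 5 called genes were *Sgk1*, *Arrdc2*, *Sult1a1*, *Tsc22d3* and *Errfi1*. *Fkbp5*, *Zbtb16* and *Ddit4* had positive log2 fold changes that did not pass, and *Cdkn1a* was close to 0. The median log2 fold change of the 9 genes was 0.43, against 0.00 over all genes. The 2 genotypes overlapped for each of the 9 genes, whereas over all genes 5 (0.0291%) had no overlap. The study's own brain comparison used fewer brains of each genotype, and which of these they were is not given in the sources used here. At the threshold of its methods, which set an FDR under 0.001 and a minimum fold change, over the 20 brains 0 of the 9 genes and 0 (0%) of all genes were called by limma. In the same fit 3030 (17.6%) of all genes had an unadjusted p under 0.05.

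**Figure D1:**
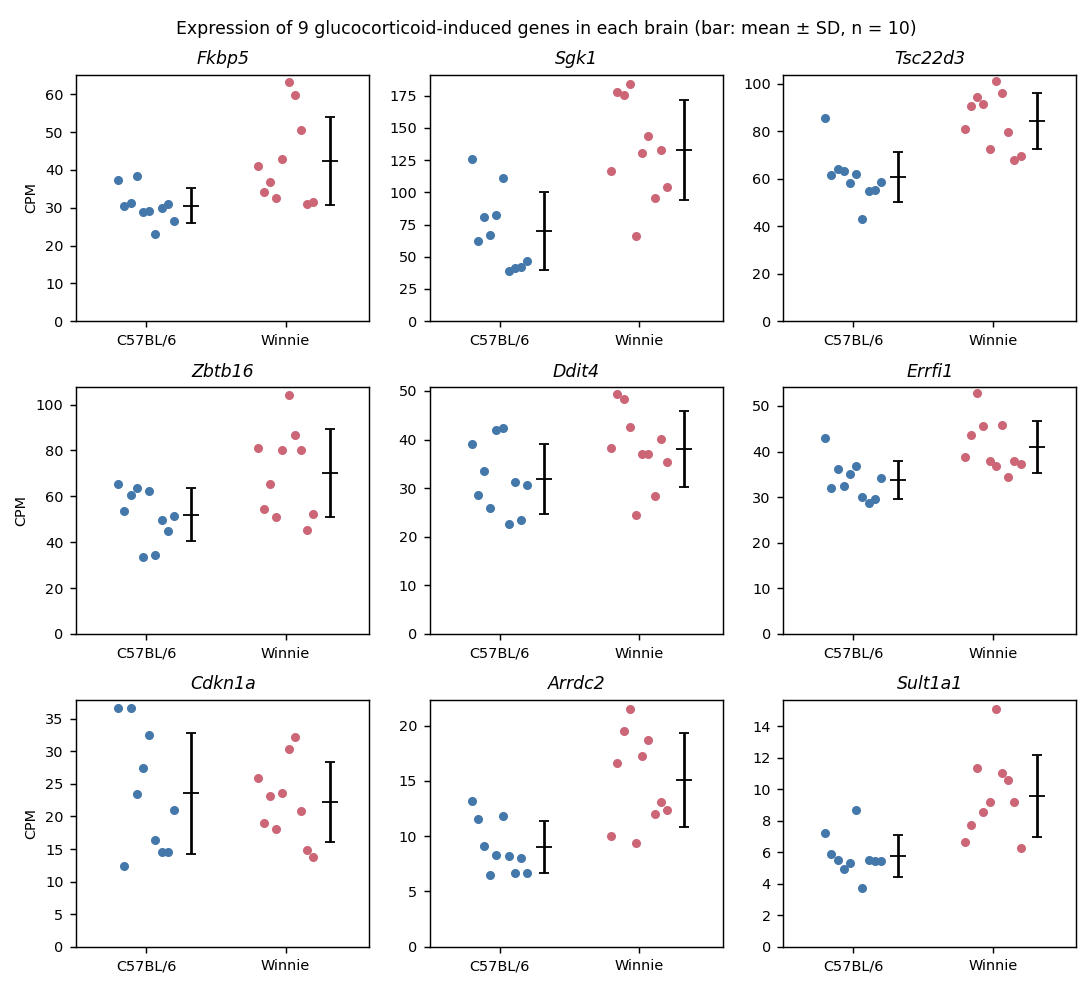
Expression of the 9 genes in each brain, in CPM on axes that start at 0, for C57BL/6 and *Winnie*; points are single brains in replicate order from left to right, and bars are mean ± SD (n = 10). For *Sgk1*, 6 *Winnie* brains lay above the highest C57BL/6 brain, and for *Cdkn1a* 0 did.

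*Fkbp5* encodes an immunophilin co-chaperone that lowers the affinity of the glucocorticoid receptor for its hormone, a short negative feedback loop. The gene lies on chr17:28399094-28517527 (GRCm38, minus strand). C57BL/6 brains ranged from 22.9 to 38.3 CPM with a median of 30.2 CPM. *Winnie* brains ranged from 31.1 to 63.3 CPM with a median of 39.0 CPM. All 10 *Winnie* brains lay above the C57BL/6 median and 5 lay above the highest C57BL/6 brain, *Winnie* replicates 6, 7 and 8 standing highest with 63.3, 59.8 and 50.6 CPM. The other 7 *Winnie* brains spread from 31.1 to 42.8 CPM. The log2 fold change was 0.43 (SE 0.134), from 30.6 ± 4.58 to 42.4 ± 11.8 CPM (SD, n = 10 each), and the limma FDR of 0.0874 did not pass. On the reads recovered from the CPM the FDR was 0.0375 with edgeR and 0.0256 with DESeq2, so the call depends on the test. By these tests 517 (3%) and 977 (5.68%) of all genes were called, and 6 of the 9 genes by each, the 5 above and *Fkbp5*.

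The transcription regulators of the set are *Tsc22d3* and *Zbtb16*. *Tsc22d3* (chrX:140539528-140600659, minus strand) encodes the glucocorticoid-induced leucine zipper, a protein that restrains NF-κB and AP-1 activity. It ranged from 43.2 to 85.5 CPM with a median of 60.1 CPM in C57BL/6 brains. *Winnie* brains ranged from 67.9 to 101 CPM with a median of 85.9 CPM. Only C57BL/6 replicate 1, at 85.5 CPM, reached into the *Winnie* range, since the next C57BL/6 brain had 64.2 CPM. *Tsc22d3* rose from 60.7 ± 10.6 to 84.5 ± 11.8 CPM (SD, n = 10 each), a log2 fold change of 0.48 (SE 0.0961, limma FDR = 0.0139).

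*Zbtb16* (chr9:48654297-48836222, minus strand) encodes PLZF, a zinc finger repressor. C57BL/6 brains ranged from 33.4 to 65.5 CPM with a median of 52.4 CPM. *Winnie* brains ranged from 45.2 to 104 CPM with a median of 72.7 CPM. The *Winnie* order held a gap, with replicates 1, 5, 6, 7 and 8 at 80.2 CPM or more, all above the highest C57BL/6 brain, and the other 5 at 65.2 CPM or less. The log2 fold change was 0.42 (SE 0.166), and it did not pass (limma FDR = 0.190).

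The signalling genes included the called genes *Sgk1* and *Errfi1*. *Sgk1* (chr10:21882184-21999903, plus strand) encodes serum- and glucocorticoid-regulated kinase 1, which acts on ion channels and transporters. It ranged from 39.2 to 126 CPM with a median of 64.6 CPM in C57BL/6 brains. *Winnie* brains ranged from 66.4 to 184 CPM with a median of 132 CPM. *Winnie* replicates 2, 3 and 4 stood highest with 178, 175 and 184 CPM, and replicate 5, at 66.4 CPM, lay near the C57BL/6 median. Among C57BL/6 brains replicates 1 and 6 stood apart from the others with 126 and 111 CPM. *Sgk1* rose from 69.9 ± 30.3 to 132.9 ± 38.7 CPM (SD, n = 10 each), a log2 fold change of 0.98 (SE 0.238, limma FDR = 0.0374) and the largest of the 9.

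*Errfi1* (chr4:150853919-150868892, plus strand), also known as *Mig6*, encodes a feedback inhibitor of the EGF receptor. It ranged from 28.8 to 42.9 CPM with a median of 33.4 CPM in C57BL/6 brains and from 34.5 to 52.9 CPM with a median of 38.3 CPM in *Winnie* brains. The 4 *Winnie* brains above all C57BL/6 brains were replicates 2, 3, 4 and 7. *Errfi1* rose from 33.8 ± 4.24 to 41.1 ± 5.68 CPM (SD, n = 10 each), a log2 fold change of 0.28 (SE 0.0727, limma FDR = 0.0393), the smallest of the 5 calls.

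*Ddit4* (chr10:59949669-59951834, minus strand) encodes REDD1, a stress-induced inhibitor of mTORC1. It ranged from 22.7 to 42.3 CPM with a median of 30.9 CPM in C57BL/6 brains and from 24.4 to 49.4 CPM with a median of 37.7 CPM in *Winnie* brains. The genotypes overlapped over most of the range, and only *Winnie* replicates 2, 3 and 4 lay above the highest C57BL/6 brain. The log2 fold change was 0.25 (SE 0.139, limma FDR = 0.361). *Cdkn1a* (chr17:29090976-29100727, plus strand) encodes p21, an inhibitor of cyclin-dependent kinases that is also a p53 target. It ranged from 12.4 to 36.6 CPM with a mean of 23.5 ± 9.32 CPM in C57BL/6 brains and from 13.8 to 32.2 CPM with a mean of 22.2 ± 6.13 CPM in *Winnie* brains. Here 5 *Winnie* brains lay above the C57BL/6 median and 5 below it. The log2 fold change was −0.03 (SE 0.219, limma FDR = 0.963), and its 95% interval ran from −0.49 to 0.43.

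The last pair are *Arrdc2* and *Sult1a1*. *Arrdc2* (chr8:70835129-70839720, minus strand) encodes an arrestin domain protein of the alpha-arrestin family. It ranged from 6.503 to 13.2 CPM with a median of 8.27 CPM in C57BL/6 brains and from 9.37 to 21.5 CPM with a median of 14.9 CPM in *Winnie* brains. The 5 *Winnie* brains above all C57BL/6 brains were replicates 2, 3, 4, 6 and 7. *Arrdc2* rose from 9.01 ± 2.38 to 15.1 ± 4.23 CPM (SD, n = 10 each), a log2 fold change of 0.70 (SE 0.165, limma FDR = 0.0316).

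*Sult1a1* (chr7:126672865-126676432, minus strand) encodes a phenol sulfotransferase, which sulfates phenolic drugs, hormones and catecholamines. It ranged from 3.72 to 8.67 CPM with a median of 5.47 CPM in C57BL/6 brains and from 6.25 to 15.1 CPM with a median of 9.20 CPM in *Winnie* brains. *Winnie* replicate 6 was the highest for *Sult1a1*, as it was for *Fkbp5*, *Zbtb16* and *Tsc22d3*. *Sult1a1* rose from 5.76 ± 1.33 to 9.57 ± 2.60 CPM (SD, n = 10 each), a log2 fold change of 0.67 (SE 0.137, limma FDR = 0.0130). It overlaps *Sgf29* on the opposite strand. Where the strand of the reads was not used in counting, reads of the overlap cannot be assigned, and the sources used here do not give that setting.

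The calls of *Sult1a1* and *Tsc22d3* held in all 20 fits that left out 1 brain. *Sgk1* was not called in 12 of them (without C57BL/6 replicates 3, 4, 5, 7, 8 or 9 or *Winnie* replicates 2, 3, 4, 7, 8 or 9), with an FDR of up to 0.0701. *Errfi1* was not called in 11 (without C57BL/6 replicates 2, 3, 4, 5, 7, 8 or 9 or *Winnie* replicates 2, 3, 4 or 7), with an FDR of up to 0.0761. *Arrdc2* was not called in 8 (without C57BL/6 replicates 3, 4, 5, 8 or 9 or *Winnie* replicates 2, 3 or 7), with an FDR of up to 0.0630. With *Ddx3y* as a covariate, in place of the labelled sex, the same 5 genes were called, and 485 of all 17211 genes. The log2 fold change of *Sgk1* was then 0.95. Leaving out the 9 brains with a sex against the label left 1 C57BL/6 brain, replicate 4, whose spread is then assumed to be that of the other brains. The log2 fold changes against it were 0.92 for *Sgk1*, 1.10 for *Arrdc2*, 0.85 for *Sult1a1*, 0.40 for *Tsc22d3* and 0.32 for *Errfi1*. Those of *Fkbp5* and *Zbtb16* came to 0.10 and 0.09 in that fit. In bulk RNA, a change in the number of cells of a type and one in RNA per cell cannot be told apart.

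Levels were also read per kilobase of exon. In C57BL/6 brains the order ran from *Ddit4*, at 18.2 ± 4.13 CPM per kilobase, through *Sgk1* (14.3) down to *Sult1a1* (3.82), *Fkbp5* (3.23) and *Arrdc2* (2.79 ± 0.736). In *Winnie* brains *Sgk1* stood first, at 27.1 ± 7.90 CPM per kilobase, ahead of *Ddit4* (21.7) and *Tsc22d3* (19.5), and *Fkbp5* stood last at 4.48 ± 1.24. No neighbours in the C57BL/6 order differed by more than the sum of their SDs. In the *Winnie* order only *Errfi1* (11.5 ± 1.59) and the next gene, *Sult1a1* (6.35 ± 1.72), did.

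**Figure D2:**
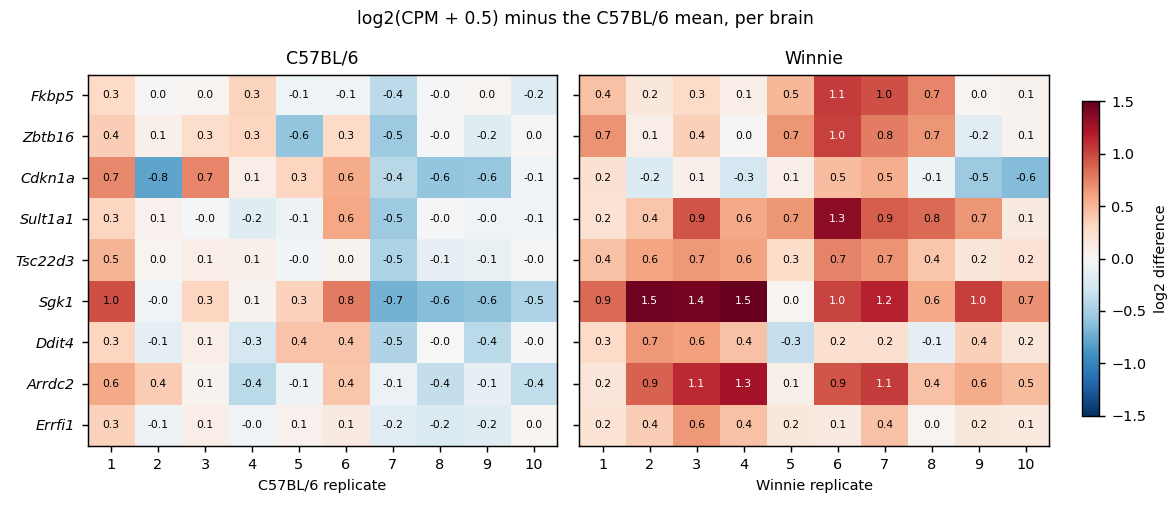
Log2 difference of each brain from the C57BL/6 mean of the gene, in log2(CPM + 0.5), with genes as rows and replicates as columns; rows are ordered by the *Winnie* correlations. *Winnie* replicates 6, 7 and 8 are high in *Fkbp5* and *Zbtb16*, and *Winnie* replicates 2, 3 and 4 are the highest in *Sgk1* and *Ddit4*, whereas in *Arrdc2* replicates 6 and 7 (17.3 and 18.7 CPM) exceed replicate 2 (16.6 CPM).

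The second question was whether the genes varied together among brains of the same genotype, which their choice did not fix. In C57BL/6 brains all 36 pairs had a positive Pearson's r of log2(CPM + 0.5), from 0.20 to 0.90 with a median of 0.63. After adjustment over the 72 pairs of both genotypes, 7 passed (two-sided permutation test with 100000 resamples). *Sgk1* was in 4 of them. It varied most closely with *Errfi1* (r = 0.90, adjusted p = 0.00552; rho = 0.92, adjusted p = 0.0125; n = 10). The r of *Sgk1* with *Cdkn1a* was 0.83 (adjusted p = 0.0375), with *Ddit4* 0.80 (adjusted p = 0.0403) and with *Tsc22d3* 0.79 (adjusted p = 0.0101). The other 3 pairs were *Errfi1* with *Cdkn1a* (r = 0.87, adjusted p = 0.0101), *Tsc22d3* with *Errfi1* (r = 0.81, adjusted p = 0.0375) and *Tsc22d3* with *Zbtb16* (r = 0.74, adjusted p = 0.0375). By Spearman's rho 4 pairs passed. C57BL/6 replicate 1 was high and replicate 7 low in most genes. Without the 2 brains farthest from the median of the first gene, r stayed over 0.5 in each of the 7 pairs, and that of *Sgk1* with *Errfi1* was 0.81.

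In *Winnie* brains 26 pairs had a positive and 10 a negative r, from −0.45 to 0.94 with a median of 0.49, and 5 passed the same test. *Fkbp5*, *Zbtb16* and *Cdkn1a* varied together. Their r with neuron markers, of which that of *Fkbp5* passed, is given with the cell type markers. Between *Fkbp5* and *Zbtb16* r was 0.93 (adjusted p = 0.00216; rho = 0.94, adjusted p = 0.0112; n = 10), between *Zbtb16* and *Cdkn1a* 0.89 (adjusted p = 0.00954; rho = 0.94, adjusted p = 0.0112) and between *Fkbp5* and *Cdkn1a* 0.87 (adjusted p = 0.0119; rho = 0.89, adjusted p = 0.0180). A separate set was formed by *Sgk1* with *Ddit4* (r = 0.94, adjusted p = 0.00360; rho = 0.88, adjusted p = 0.0180) and *Arrdc2* (r = 0.86, adjusted p = 0.0111; rho = 0.87, adjusted p = 0.0198). Without the 2 brains farthest in the first gene of each pair, these 5 values of r were 0.92, 0.83, 0.71, 0.92 and 0.76, in the order given. These sets were read from the *Winnie* correlations themselves, so that low values between them follow in part from the choice, and the comparison with C57BL/6 brains is a description. The 9 pairs that join the first set to the second had r from −0.45 to 0.15, with 7 negative, and none had passed (lowest adjusted p = 0.296). In C57BL/6 brains the same 9 pairs had r from 0.20 to 0.83, all positive, and 1 passed. The difference in r between the genotypes was not tested. *Tsc22d3* had a positive r with every other gene of the set in both genotypes, 0.45 to 0.76 in *Winnie* brains. In *Winnie* brains each of the other 8 genes had at least 1 negative r. None of the *Winnie* pairs of *Tsc22d3* passed. With 2 brains left out, the r of *Tsc22d3* was −0.01 with *Zbtb16*, 0.06 with *Fkbp5* and 0.31 to 0.88 with the rest. The brains left out differed by pair: replicates 6 and 7 with *Fkbp5*, 4 and 5 with *Sgk1*, and 9 and 10 with the others.

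**Figure D3:**
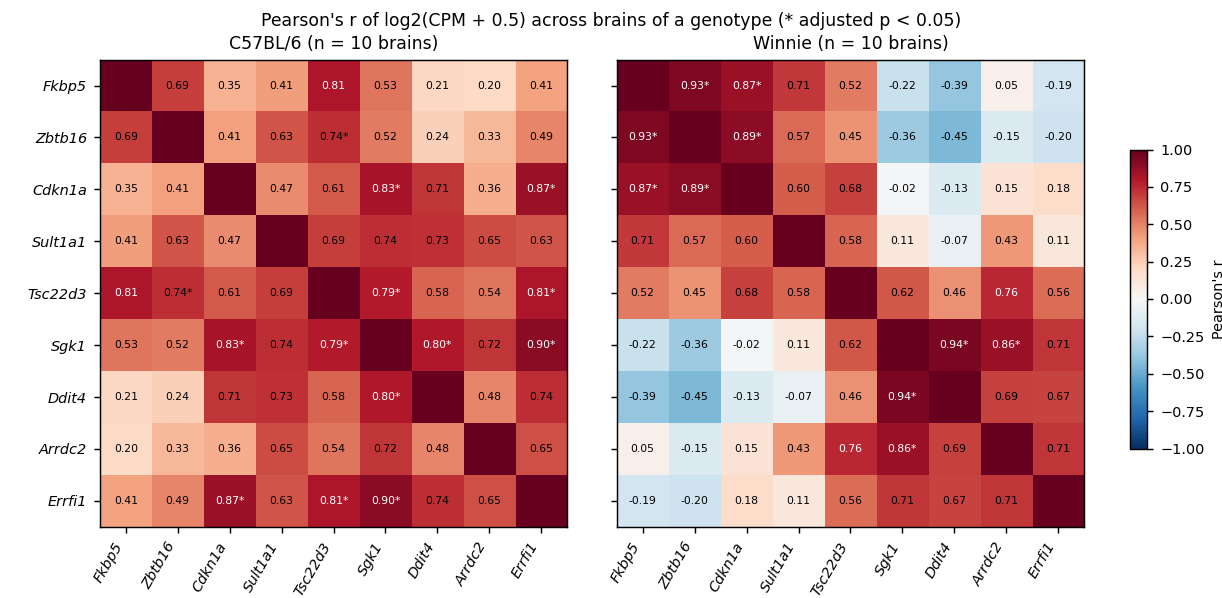
Pearson's r of log2(CPM + 0.5) for each pair of the 9 genes across the 10 C57BL/6 brains (left) and the 10 *Winnie* brains (right); an asterisk marks an adjusted p under 0.05. All C57BL/6 pairs are positive, and the *Winnie* pairs of *Fkbp5*, *Zbtb16* or *Cdkn1a* with *Sgk1* or *Ddit4* are negative.

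**Figure D4:**
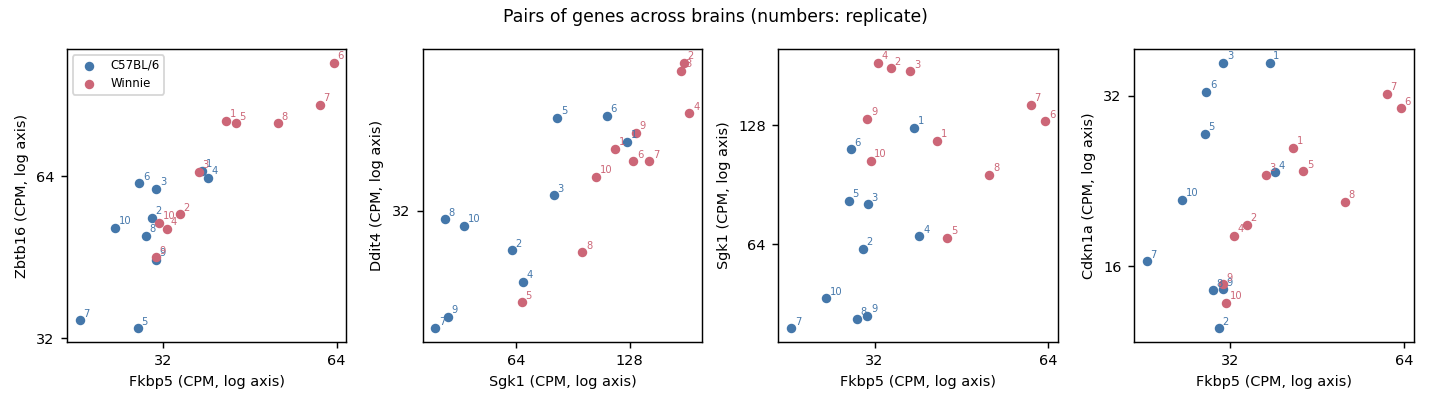
CPM of pairs of genes in each brain on log axes, with the replicate number beside each point: *Zbtb16* against *Fkbp5*, *Ddit4* against *Sgk1*, *Sgk1* against *Fkbp5*, and *Cdkn1a* against *Fkbp5*. In the third panel *Winnie* replicates 2, 3 and 4 lie at 175 to 184 CPM of *Sgk1* with 32.5 to 36.9 CPM of *Fkbp5*.

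The *Winnie* brains highest for *Fkbp5* were not those highest for *Sgk1*. Replicates 6, 7 and 8, the highest for *Fkbp5*, had 131, 144 and 96.0 CPM of *Sgk1*. Replicates 2, 3 and 4, the highest for *Sgk1*, had 34.2, 36.9 and 32.5 CPM of *Fkbp5*, within the C57BL/6 range. The other genes of the sets did not split so cleanly. Replicates 6 and 7 had 17.3 and 18.7 CPM of *Arrdc2*, above the 16.6 CPM of replicate 2, and replicate 8 had 20.8 CPM of *Cdkn1a*, below the 23.2 CPM of replicate 3. *Winnie* replicate 5 had the lowest *Sgk1*, *Ddit4* and *Arrdc2* of its genotype, with 42.8 CPM of *Fkbp5* and 80.3 CPM of *Zbtb16*. By label and by *Xist* and *Ddx3y*, *Winnie* replicates 6, 7 and 8 were male and replicates 2, 3 and 4 female. Replicate 5 was female as well, and the male replicates 9 and 10 had 31.1 and 31.5 CPM of *Fkbp5*. The part of sex in this split was not tested.

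Against 15159 other genes with a mean of at least 1 CPM, the median r of each of the 9 genes lay between −0.16 and 0.19. In C57BL/6 brains *Sgk1* had r over 0.5 with 8 of the 8 other genes of the set and with 6.41% of the other genes, and *Tsc22d3* with 8 and with 6.74%. In *Winnie* brains *Sgk1* had r over 0.5 with 4 of the 8 and with 20.5% of the other genes. *Fkbp5* had r over 0.5 with 4 of the 8 and with 8.93% of the other genes in *Winnie* brains. These shares share the libraries and their depth and are given as a description.

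The genes that followed each of the 9 most closely were sought with the genotype means removed, over 20 brains. Nearest to *Fkbp5* were *Plin4* and *Smim3* (r = 0.85 each), *Map3k6* (0.84), *Ociad2* (0.82) and *Iqgap2* (0.80). Within genotypes r with *Fkbp5* was 0.53 in C57BL/6 and 0.96 in *Winnie* brains for *Plin4*, 0.48 and 0.95 for *Ociad2*, and 0.39 and 0.90 for *Iqgap2*, against 0.87 and 0.85 for *Smim3* and 0.76 and 0.88 for *Map3k6*. *Plin4* and *Map3k6* were also nearest to *Zbtb16*, with r of 0.86 and 0.83. *Nfkbia* was nearest to *Sgk1* (0.90) and to *Ddit4* (0.86), followed by *Plekhf1* for *Sgk1* (0.86) and *Arl4d* for *Ddit4* (0.80). For *Tsc22d3* they were a gene with a clone name only (0.91) and *Gpt2* (0.89), for *Errfi1* *Irs2* and *Zfp189* (0.85 each), and for *Cdkn1a* *Dio2* (0.88) and *Fam84a* (0.87). *F3* (0.86) and *Klf15* (0.81) were nearest to *Arrdc2*, and *Mertk* and *Spsb1* (0.80 each) to *Sult1a1*.

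Other genes known to respond to glucocorticoids were read from a list of 23, of which 22 were measured. Of these 4 were higher and 0 lower, 21 had a positive log2 fold change, and the median was 0.20. Over all 17211 genes 261 (1.52%) were higher and 173 (1.01%) lower, 8774 had a positive log2 fold change, and the median was 0.00. The list was chosen with earlier results of these data known, so its counts are a description. *Plin4*, which encodes a lipid droplet coat protein, had a median of 3.04 CPM (1.47 to 7.29) in C57BL/6 and 12.4 CPM (4.90 to 44.4) in *Winnie* brains. It rose by a log2 fold change of 1.91 (SE 0.386, limma FDR = 0.0163), and *Winnie* replicates 6, 7 and 8 were again the highest with 44.4, 34.5 and 31.0 CPM. *Hif3a*, which encodes a hypoxia-inducible factor subunit, had a median of 7.39 CPM (4.17 to 12.8) in C57BL/6 and 16.997 CPM (11.04 to 27.97) in *Winnie* brains, a log2 fold change of 1.17 (SE 0.213, limma FDR = 0.0100). The Krüppel-like factor gene *Klf15* rose by 0.39 (SE 0.0888, limma FDR = 0.02003) and *Mertk*, a phagocytic receptor kinase gene, by 0.32 (SE 0.0757, limma FDR = 0.0255). *Klf15*, *Hif3a* and *Plin4* were called in all fits without 1 brain, and *Mertk* was lost in 3, with an FDR of up to 0.0593. *Nfkbia* (0.42, FDR = 0.113), *Per1* (0.40, FDR = 0.247), *Mt1* (0.24, FDR = 0.0589) and *Klf9* (0.09, FDR = 0.474) did not pass, nor did *Dusp1* (0.02, FDR = 0.980). The lowest was *Cebpb* at −0.27 (FDR = 0.255).

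**Figure D5:**
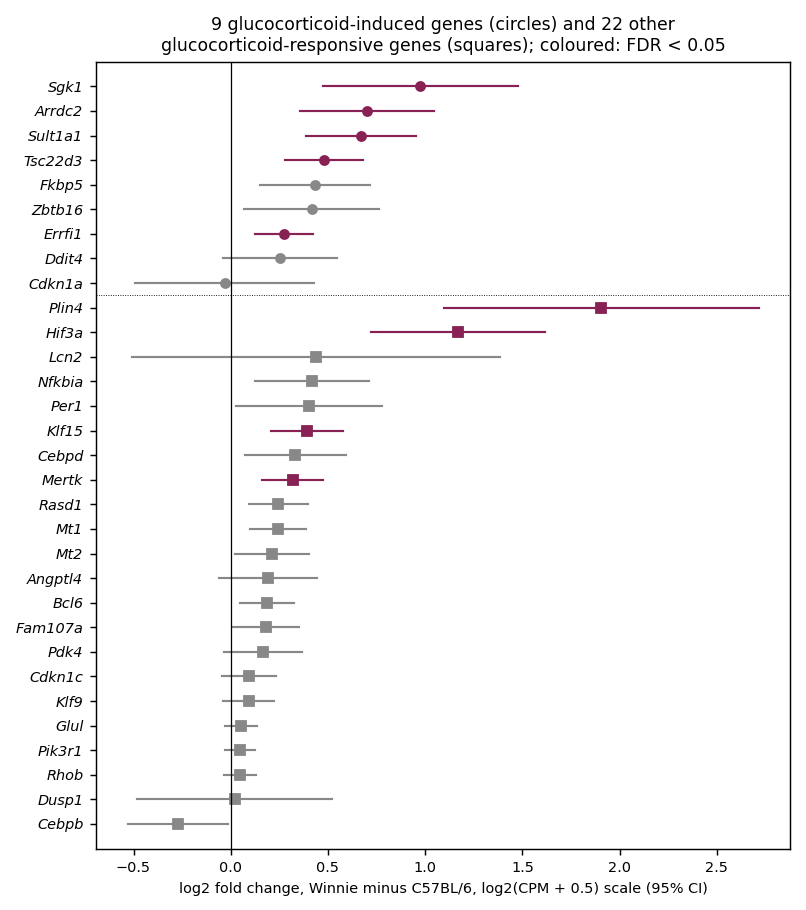
Log2 fold changes of the 9 genes (circles) and of the 22 other glucocorticoid-responsive genes (squares), *Winnie* minus C57BL/6 on the log2(CPM + 0.5) scale, with 95% confidence intervals; coloured symbols have an FDR under 0.05. The 5 called genes of the set run from 0.28 (*Errfi1*) to 0.98 (*Sgk1*), and *Plin4* is furthest from 0 at 1.91.

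Of 12 measured genes of corticosteroid receptors, their chaperones and steroid access, 0 were higher, against 1.52% of all genes, and 3 lower, against 1.01%. These were the co-chaperone genes *Ptges3*, which encodes p23 (−0.24, limma FDR = 0.0087), *Fkbp4*, which encodes the FKBP52 counterpart of FKBP51 (−0.19, FDR = 0.0366), and *Stip1*, which encodes HOP (−0.16, FDR = 0.0321). Leaving out 1 brain lost the call of *Fkbp4* in 7 fits, with an FDR of up to 0.0847, and that of *Stip1* in 5, with an FDR of up to 0.0754. The glucocorticoid receptor gene *Nr3c1* had 119 ± 4.83 CPM in C57BL/6 and 110 ± 9.04 CPM in *Winnie* brains (SD, n = 10 each; log2 fold change −0.11, FDR = 0.137). The mineralocorticoid receptor gene *Nr3c2* had a log2 fold change of 0.07 (FDR = 0.461) and *Hsd11b1*, whose product regenerates active corticosterone, −0.07 (FDR = 0.672).

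Pathways that share targets with the 9 genes were read in the same fit, in which 1.52% of all genes were higher and 1.01% lower. Of 15 clock genes 5 were higher, *Ciart* (0.59, FDR = 0.0168), *Per3* (0.42, FDR = 0.00590), *Bhlhe41* (0.28, FDR = 0.0112), *Nr1d2* (0.20, FDR = 0.0194) and *Tef* (0.14, FDR = 0.0222). *Arntl*, of the opposite phase, was lower (−0.23, FDR = 0.0184). The hour at which each brain was taken is not given in the sources used here, so time of day and genotype cannot be told apart. Of 10 hypoxia-responsive genes only *Slc2a1*, which encodes the glucose transporter GLUT1, was called (0.45, FDR = 0.00551). The p53-responsive list, whose members share regulation with *Cdkn1a*, had 0 of 9 called, from *Phlda3* at −0.14 to *Trp53inp1* at 0.24. The immediate-early list had 0 of 10 called, from *Npas4* at −0.52 to *Nr4a1* at 0.15.

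Markers of the cell types of the brain were read beside these results. All 6 neuron markers were present, with a sum of 5608 to 6577 CPM in C57BL/6 and 5688 to 6312 CPM in *Winnie* brains. Of the 10 marker lists 9 had 0 genes called. In the endothelial list *Cldn5*, a tight junction gene, was lower (−0.47, FDR = 0.00331). Of this list's 6 markers 5 had a positive log2 fold change, and the median was 0.09. The list's sum was 150 to 211 CPM in C57BL/6 and 167 to 201 CPM in *Winnie* brains. The pituitary list summed to 1.53 to 4.08 CPM in C57BL/6 and 0.650 to 27.6 CPM in *Winnie* brains, with some brains at 0 for *Gh* and *Prl*. The blood list summed to 93.6 to 208 CPM and 40.6 to 150 CPM. Within genotypes, the mean log2 level of each of 16 lists was set against each of the 9 genes. Of these 288 relations 1 passed by Pearson's r, that of the neuron markers with *Fkbp5* in *Winnie* brains (r = 0.96, adjusted p = 0.0202; rho = 0.95, adjusted p = 0.0216; n = 10). It was r = 0.91 without *Winnie* replicates 6 and 7, and r = 0.27 (adjusted p = 0.809) in C57BL/6 brains. By Spearman's rho the oligodendrocyte markers with *Cdkn1a* in C57BL/6 brains also passed (rho = −0.99, adjusted p = 0.00576; r = −0.90, adjusted p = 0.0922; r = −0.82 without C57BL/6 replicates 2 and 8). In *Winnie* brains the genes that varied with *Fkbp5* had r with the neuron markers of 0.87 (*Zbtb16*, adjusted p = 0.0942) and 0.79 (*Cdkn1a*, adjusted p = 0.153). For *Sult1a1*, whose r of 0.71 with *Fkbp5* did not pass, r with the neuron markers was 0.76 (adjusted p = 0.176). With the microglia markers r was −0.72 for *Fkbp5* (adjusted p = 0.216), −0.76 for *Zbtb16* and *Cdkn1a* (adjusted p = 0.149 each) and −0.79 for *Tsc22d3* (adjusted p = 0.0942). *Sgk1*, *Ddit4* and *Arrdc2* had r of −0.26, −0.45 and 0.09 with the neuron markers. The part of cell makeup in the values of the 9 genes, and in their variation together, was not tested.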

How the data were processed

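PolyA libraries of brain RNA were read paired-end on an MGISEQ-2000RS. With RNAsik the authors placed reads on GRCm38, FeatureCounts gave the count of each gene, and Degust turned counts into the deposited CPM, each gene's share of the reads of the listed genes. The strand setting and the filter on low counts are not given in the sources used here. In each brain all values were whole multiples of a step, within 0.02 reads, and the reads were recovered from it. The table held 0 columns that were not used.

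Genes were compared with limma 3.58.1 (R 4.3.3, trend and robust) on log2(CPM + 0.5) over all 17211 genes and 20 brains, with Benjamini-Hochberg adjustment (FDR). The study's edgeR threshold was kept as an alternative. Replicates are brains of separate mice. Correlations were tested by permutation (numpy 2.4.6, with ranks from scipy 1.17.1) and adjusted over 72 pairs of genes. For the 16 lists a separate family of 288 relations was added after seeing the data. The limma fit was tested on simulated data. Intervals come from the spread between brains.

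The 9 genes and the lists were chosen with earlier results of these data known. Named were the 9 genes, list genes past the FDR (up to 6 a list) or otherwise the highest and lowest, and the genes nearest to each of the 9. *Nfkbia*, *Per1*, *Mt1*, *Klf9*, *Dusp1*, *Nr3c1*, *Nr3c2* and *Hsd11b1* were named in addition, after their values were seen. Gene positions are from GENCODE M21, which matched 17128 genes. Exon length is that of all annotated exons joined.

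Alternatives were pseudocounts of 0.1 and 1, a mean CPM of at least 1, median-ratio scaling, labelled sex or *Ddx3y* as covariate, a replicate block, edgeR 4.0.16 and DESeq2 1.42.0 on recovered reads, and leaving out each brain. Leaving out the 9 brains with a sex against the label was added after seeing the data.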

Additional observations from a re-analysis of the deposited data

Results flagged for a closer look

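The 9 genes, the 22 other glucocorticoid-responsive genes and the genes nearest to each of the 9 were read for single brains far from the rest, over 90 sets of a gene and a genotype, and 3 were found. A gap this wide arises by chance in about 1 of 20 such sets. *Tsc22d3* was 85.5 CPM in C57BL/6 replicate 1, with the next brain at 64.2 CPM. *Klf15* was 27.3 CPM in the same brain, with the next at 19.2 CPM. *Lcn2*, an acute phase gene with very low counts in these brains, was 2.60 CPM in C57BL/6 replicate 2, with the next at 1.32 CPM. C57BL/6 replicate 1 also had the highest *Sgk1*, *Zbtb16*, *Errfi1* and *Arrdc2* of its genotype. Without it the calls of *Tsc22d3* and *Klf15* held.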

How the results depend on the processing

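The counts of calls moved most. Over all genes 434 were called, and DESeq2 called 977, the replicate block 227 (1.32%), the fit without the 9 brains 1 and the study's threshold 0. Leaving out 1 brain gave 169 to 694, with 238, 169, 250, 270 and 694 without C57BL/6 replicates 3, 5, 8, 9 and 10, and 264, 241, 256 and 216 without *Winnie* replicates 2, 3, 7 and 8. Of the 9 genes 5 were called, and the replicate block called 3 (*Errfi1*, *Sult1a1* and *Tsc22d3*), the fit without the 9 brains 0 and the study's threshold 0. Leaving out 1 brain gave 2 to 5. Of the other glucocorticoid-responsive genes 4 were called, with 0 without the 9 brains and 0 at the study's threshold, and 3 to 5 when 1 brain was left out. The cause was not tested, other than that those 9 brains leave 1 C57BL/6 brain. Labels share replicate numbers between the genotypes, but same-numbered brains did not vary together (correlations of −0.34 to 0.17, 2 of 10 over 0.1). Since 9 C57BL/6 brains had a sex against the label, these correlations cannot show whether brains were paired.

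The log2 fold change of *Cdkn1a* changed sign without C57BL/6 replicates 1 (0.049), 3 (0.049), 5 (0.0032) and 6 (0.030) and without *Winnie* replicates 9 (0.025) and 10 (0.037), the lowest value being −0.12 without C57BL/6 replicate 2. No other of the 9 genes changed direction under any alternative run. The median r among the 9 genes was 0.53 to 0.70 in C57BL/6 and 0.39 to 0.56 in *Winnie* brains without 1 brain, with a jackknife SE of 0.15 and 0.14, and the 2 medians differ by less than these errors combined. With *Ddx3y* removed they were 0.58 and 0.52. Each of the 9 genes held 66 reads or more in each brain.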
